A study of Homo sapiens with 9 samples.

Results

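The E2F transcription factors E2F1 to E2F8 and the cell cycle factors FOXM1 and MYBL2 were examined in H1299 cells after depletion of FIBP. These 10 genes were taken by gene symbol from the transcript tables, and the FPKM of all transcripts of a gene, a level scaled to transcript length and to the size of the library, were summed. All 10 were among the 60966 genes of the tables, and all 10 were among the 14985 genes tested, which had at least 1 FPKM in at least 3 samples. Together the 10 members had 74 listed transcripts.

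H1299 is a cell line from a human non-small cell carcinoma of the lung. The cells were transfected with a scrambled siRNA (Scramble, the control) or with one of 2 siRNAs against FIBP (Si-FIBP#1 and Si-FIBP#2), with 3 independent samples in each group, and were harvested after 48 h for sequencing of poly(A) RNA. FIBP itself, the targeted gene, ranged from 77.7 to 88.4 FPKM in Scramble. It lay between 4.30 and 7.77 FPKM after Si-FIBP#1, and Si-FIBP#2 left between 5.92 and 8.21 FPKM. FIBP thus sets the Scramble libraries apart from the depleted ones as labelled. It cannot check the labels of the 2 siRNA groups against each other, since these overlapped. The depletion is transient, in 1 cell line, and was read at 1 time point.

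E2F factors bind DNA mostly as dimers with a DP protein and control genes needed to enter and pass S phase. E2F1, E2F2 and E2F3 are known as activators that are held by the retinoblastoma protein RB1 until CDKs phosphorylate it, E2F4 and E2F5 act mainly as repressors with the pocket proteins RBL1 and RBL2, E2F6 represses without pocket proteins, and the atypical E2F7 and E2F8 repress without a DP partner. FOXM1 and MYBL2 (B-MYB) drive the later wave of G2 and mitotic genes, MYBL2 together with the MuvB complex, and several of these factors are themselves E2F targets. In a bulk RNA sample, fewer cells in S, G2 or M phase and less of an mRNA in each cycling cell cannot be told apart.

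The start regions of members are shown first, because E2F genes are known to carry E2F sites in their own promoters. Of the 10 members, 7 had a window in the RefSeq promoter table (GRCh38.p14), with 2 windows for E2F3. The 250 bases before the RefSeq start are printed 5′ to 3′ in the sense of the gene, without the windows of E2F6 and E2F7. Capitals mark matches on either strand to the E2F words TTTCCCGC, TTTCGCGC, TTTGCCGC and TTTGGCGC and to the shorter word GGCGGGA. E2F1, E2F2 and both E2F3 windows are activator starts, MYBL2 is a strongly lowered member, and E2F4 is shown as a repressor.
E2F1 (chr20:33686386-33686635, minus strand): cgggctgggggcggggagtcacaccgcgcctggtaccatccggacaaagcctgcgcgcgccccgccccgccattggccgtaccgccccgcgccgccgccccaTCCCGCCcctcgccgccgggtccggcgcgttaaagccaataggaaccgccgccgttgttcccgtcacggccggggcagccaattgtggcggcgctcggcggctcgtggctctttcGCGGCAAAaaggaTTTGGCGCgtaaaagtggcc
E2F2 (chr1:23531234-23531483, minus strand): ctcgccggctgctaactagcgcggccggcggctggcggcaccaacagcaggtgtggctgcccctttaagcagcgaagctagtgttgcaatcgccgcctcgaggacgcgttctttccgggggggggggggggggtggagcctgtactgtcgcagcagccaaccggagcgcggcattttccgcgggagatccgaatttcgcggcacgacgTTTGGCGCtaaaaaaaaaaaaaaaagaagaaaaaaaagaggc
E2F3 upstream start (chr6:20401629-20401878, plus strand): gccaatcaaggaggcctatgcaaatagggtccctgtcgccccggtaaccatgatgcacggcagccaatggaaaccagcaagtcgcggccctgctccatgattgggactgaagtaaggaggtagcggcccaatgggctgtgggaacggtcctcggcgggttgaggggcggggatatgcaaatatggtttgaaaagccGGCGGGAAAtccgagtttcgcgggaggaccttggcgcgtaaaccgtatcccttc
E2F3 downstream start (chr6:20403364-20403613, plus strand): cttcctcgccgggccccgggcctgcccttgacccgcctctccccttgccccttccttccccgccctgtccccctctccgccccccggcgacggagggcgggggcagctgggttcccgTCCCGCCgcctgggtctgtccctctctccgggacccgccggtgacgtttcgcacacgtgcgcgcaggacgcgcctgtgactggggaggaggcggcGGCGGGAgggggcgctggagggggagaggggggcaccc
MYBL2 (chr20:43666864-43667113, plus strand): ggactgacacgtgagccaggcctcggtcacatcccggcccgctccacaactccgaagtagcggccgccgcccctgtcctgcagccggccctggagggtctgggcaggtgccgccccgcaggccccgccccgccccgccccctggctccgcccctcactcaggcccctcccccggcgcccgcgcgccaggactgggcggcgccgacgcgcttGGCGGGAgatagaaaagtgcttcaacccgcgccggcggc
E2F4 (chr16:67191905-67192154, plus strand): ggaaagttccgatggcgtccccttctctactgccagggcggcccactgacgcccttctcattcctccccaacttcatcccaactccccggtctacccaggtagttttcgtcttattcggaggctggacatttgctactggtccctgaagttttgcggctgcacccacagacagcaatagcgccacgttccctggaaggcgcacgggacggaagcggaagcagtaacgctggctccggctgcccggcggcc

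At least 1 of the 4 E2F words was in 3 of the 8 member windows, against 2.79% of all 35116 windows cut to the same 250 bases. E2F1 held TTTGGCGC from 20 to 13 bases before its RefSeq start and the reverse complement of TTTGCCGC from 33 to 26 bases before it. E2F2 held TTTGGCGC from 42 to 35 bases before its start. The upstream E2F3 window held the reverse complement of TTTCCCGC from 53 to 46 bases before the start, overlapping the shorter word. That shorter word alone was found in the downstream E2F3 window and in the MYBL2 window. It was in 4 of the 8 member windows, against 13.5% of all windows. Neither the 4 E2F words nor the shorter word was present in the E2F4, E2F6 and E2F7 windows, which says only that these letters are not there. The words CCAAT and TTTGAA, also searched, were in 3 and 1 of the 8 member windows, against 32% and 13.3% of all windows. A match is a description of the sequence and not evidence that a factor binds it.

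In FIBP-depleted cells, the mRNAs of E2F1, E2F2, E2F8, FOXM1 and MYBL2 were between 21.4% and 43.6% of their Scramble level with both siRNAs. E2F3 and E2F4 fell less, to between 61.9% and 76.1%. E2F7 fell to 42.4% with Si-FIBP#1 but only to 74.2% with Si-FIBP#2. E2F5 rose, to 167% and 182% of its Scramble level. The rise passed the test in both comparisons without the E2F5 transcripts that share exons with a gene on the other strand, but not when a further transcript, the one that rose most, was left out too. E2F6 was at 101% with each siRNA and passed no test.

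A gene was called where limma on log2(FPKM + 1), fitted over all genes and all 9 samples, gave a Benjamini-Hochberg adjusted p below 0.05 and a change of more than 2-fold. With Si-FIBP#1, 6 of the 10 members were called lower (E2F1, E2F2, E2F7, E2F8, FOXM1 and MYBL2) and 0 were called higher. Among all genes tested in that comparison 5.66% were called, 3.11% lower and 2.55% higher. With Si-FIBP#2, 5 members were called lower, the same ones without E2F7, and 0 higher, against 5.05% of all genes, 2.13% lower and 2.92% higher. On the adjusted p alone, 8 members fell, E2F5 rose and E2F6 did not pass in each comparison, while 47.7% and 48.8% of all genes passed. The median log2 fold change of the members was -1.30 for Si-FIBP#1 and -0.90 with the other siRNA, and the median of all genes was 0.07 and 0.11. In FPKM, all 3 Scramble samples lay above all 6 depleted samples for 8 members and below them for E2F5, and so they did for 16.5% and 26.3% of all genes tested. Both comparisons share the Scramble samples. The samples are called independent in the series design without a further account of the cultures, and the p-values measure the spread between them.

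**Figure D1:**
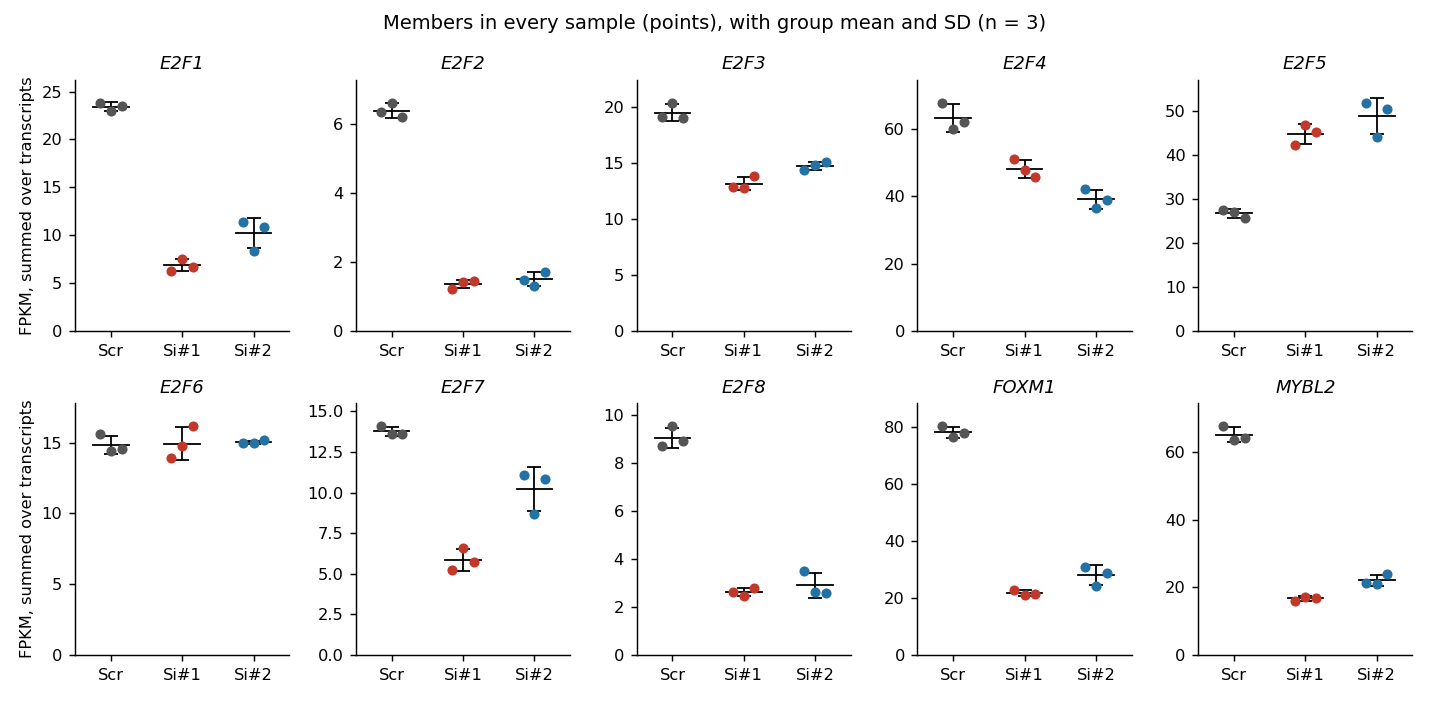
Summed FPKM (vertical axis, linear and from 0) of the 10 members in each sample (points), with the group mean and SD (n = 3), for Scramble (Scr), Si-FIBP#1 (Si#1) and Si-FIBP#2 (Si#2). Scramble samples lie above all FIBP-depleted samples for 8 members, below them for E2F5, and among them for E2F6.

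Among the activators, E2F1 (minus strand of chromosome 20, 33675683 to 33686404, GRCh38) is the E2F best known for driving S phase entry. Scramble samples held 23.9, 23.0 and 23.5 FPKM, and E2F1 was at 6.33, 7.57 and 6.73 with Si-FIBP#1 and at 11.4, 8.42 and 10.9 with Si-FIBP#2. The 3 groups did not overlap, with Si-FIBP#1 lowest. The log2 fold change was -1.64 (SE 0.107, limma adjusted p = 3.15e-06) with Si-FIBP#1 and -1.13 (SE 0.107, adjusted p = 3.09e-05) with Si-FIBP#2. Tested directly, E2F1 was higher with Si-FIBP#2 than with Si-FIBP#1 by 0.50 on the log2 scale (limma adjusted p = 0.0129), a difference below 2-fold.

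E2F2 (minus strand of chromosome 1, 23506430 to 23531220), a second RB1-bound activator, had the lowest level of the 10 members in all 3 groups. It was at 6.33, 6.61 and 6.20 FPKM in Scramble, at 1.23, 1.43 and 1.44 with Si-FIBP#1 and at 1.47, 1.31 and 1.72 with Si-FIBP#2. Scramble was above all 6 depleted samples, and the siRNA groups overlapped. The log2 fold change was -1.64 (SE 0.103, limma adjusted p = 2.61e-06) and -1.56 (SE 0.103, adjusted p = 3.92e-06). On FPKM itself the mean was 4.67 and 4.25 times lower than in Scramble, since a pseudocount of 1 understates the change of a gene at this level.

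E2F3 (plus strand of chromosome 6, 20401906 to 20493715) changed least of the 3 activators. Its Scramble values were 19.1, 20.4 and 19.1 FPKM, against 12.9, 12.8 and 13.9 after Si-FIBP#1 and 14.4, 14.9 and 15.1 after Si-FIBP#2. The groups did not overlap, and the log2 fold change was -0.53 (SE 0.0616, limma adjusted p = 9.97e-05) and -0.38 (SE 0.0616, adjusted p = 0.000781), neither of them 2-fold.

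E2F3 is known to make a longer and a shorter protein, E2F3a from the upstream start and E2F3b from a start inside the first intron of the longer form, and a window for each is printed above. The upstream form measured here, ENST00000346618, has its annotated start at 20402167, downstream of the printed upstream window that ends at 20401878, and the transcript that starts beside that window, ENST00000613242 at 20401906, was below 1 FPKM on average in each group. ENST00000346618 was at 5.11, 6.20 and 8.10 FPKM in Scramble, at 2.76, 1.65 and 2.71 with Si-FIBP#1 and at 3.52, 3.20 and 3.61 with Si-FIBP#2. All Scramble values were above all depleted values. The transcript from the downstream start, ENST00000535432 (start at 20403679), was at 10.0, 10.3 and 7.86 FPKM in Scramble, at 8.10, 8.68 and 8.0 with Si-FIBP#1 and at 8.14, 8.97 and 8.99 with Si-FIBP#2, with overlapping groups.

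In a limma fit over 47662 single transcripts, a step added after the data were seen, the upstream form changed by -1.15 (SE 0.185, adjusted p = 0.00333) and -0.73 (SE 0.185, adjusted p = 0.0255) on the log2 scale. The downstream form changed by -0.16 (adjusted p = 0.348 in limma) and -0.09 (adjusted p = 0.611). Calls at 2-fold were made for 5.34% of transcripts with Si-FIBP#1, the upstream form among them, and for 4.37% with Si-FIBP#2. The upstream form was 33.8%, 37.6% and 50.8% of the sum of both in Scramble, 25.4%, 16.0% and 25.3% after Si-FIBP#1, and 30.2%, 26.3% and 28.7% after Si-FIBP#2. The fall of the E2F3 sum lay mostly in the upstream form, although both forms share most of their exons and the split depends on how the authors' software assigned shared reads.

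The share of the dominant transcript was tested for each of the 9 members with more than 1 transcript, with an exact permutation test of the 6 depleted against the 3 Scramble samples. The test takes both siRNAs as a single group and ignores differences between them. The smallest p this design allows is 0.0119. The downstream form of E2F3 held 60.8% of the gene's FPKM in depleted samples, 12.8 percentage points more than in Scramble (two-sided exact p = 0.0119, adjusted p = 0.0536). FOXM1's dominant transcript ENST00000359843 went from 34.9% to 23.4% (exact p = 0.0119, adjusted p = 0.0536) and that of E2F4, ENST00000379378, from 89.7% to 82.3% (exact p = 0.0238, adjusted p = 0.0714). With Ensembl transcripts alone the FOXM1 share went from 37.4% to 26.5% (exact p = 0.0238, adjusted p = 0.0714), and its groups overlapped. The E2F3 and E2F4 shares were then both at exact p = 0.0119 (adjusted p = 0.0536). With 9 tests, 2 shares at the smallest p adjust to 0.0536, so no share could pass unless at least 3 had a low p together, and missing the threshold says little about these shares.

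**Figure D2:**
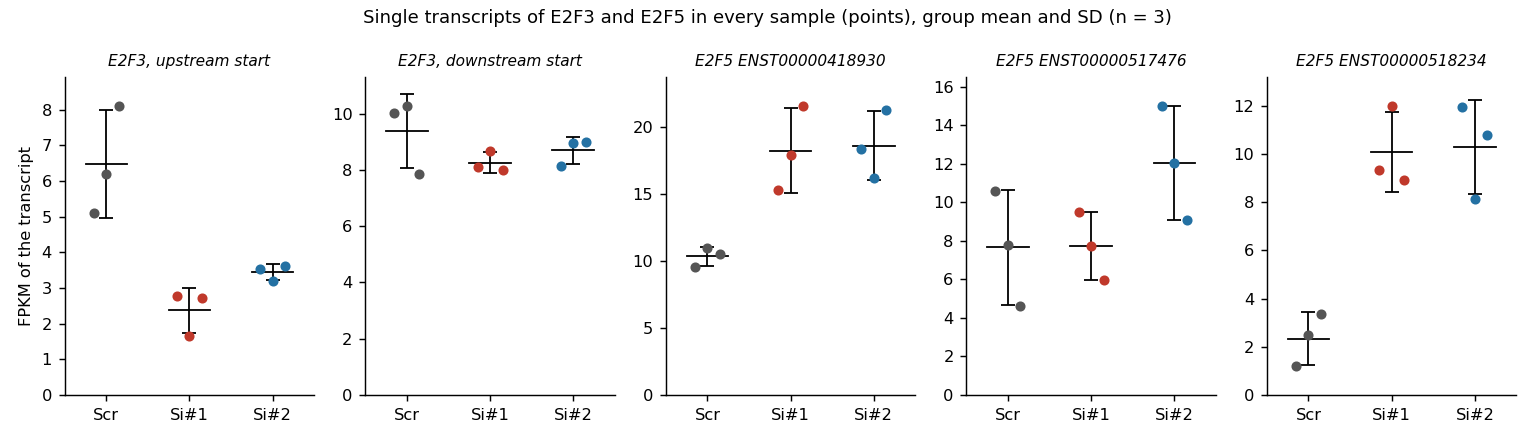
FPKM of single transcripts (vertical axes, linear and from 0) of E2F3 and E2F5 in each sample (points), with group mean and SD (n = 3). The upstream E2F3 form is lower in all 6 depleted samples, the downstream form overlaps, and ENST00000418930 and ENST00000518234 of E2F5 are higher in all 6.

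Of the canonical repressors, E2F4 (plus strand of chromosome 16, 67192169 to 67198918) is the main partner of RBL1 and RBL2 in resting cells. It was at 67.7, 59.8 and 62.1 FPKM in Scramble, at 50.9, 47.7 and 45.7 with Si-FIBP#1 and at 42.1, 36.4 and 39.0 with Si-FIBP#2. The groups did not overlap, and here Si-FIBP#2 was lowest. The log2 fold change was -0.39 (SE 0.0715, limma adjusted p = 0.00169) and -0.68 (SE 0.0715, adjusted p = 5.94e-05). Si-FIBP#2 was below Si-FIBP#1 by -0.29 (limma adjusted p = 0.0242), opposite in sign to the other 4 members for which the siRNAs differed.

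E2F5 (plus strand of chromosome 8, 85177225 to 85217158) works with RBL2 in the same kind of repressor complex as E2F4. It was at 27.7, 27.1 and 25.7 FPKM in Scramble, at 42.3, 46.8 and 45.3 with Si-FIBP#1 and at 52.0, 44.2 and 50.4 with Si-FIBP#2. All 6 depleted samples were above the Scramble samples, and the siRNA groups overlapped. It rose by 0.72 (SE 0.0711, limma adjusted p = 3.82e-05) and 0.84 (SE 0.0711, adjusted p = 1.66e-05) on the log2 scale, with both changes below 2-fold.

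The 3 most abundant E2F5 transcripts behaved differently from each other. ENST00000418930, from the first annotated start, went from a mean of 10.3 FPKM to 18.2 and 18.6, a change of 0.75 and 0.78 (limma adjusted p = 0.00589 and 0.00509). ENST00000518234, a model of 674 nt whose 5′ end is annotated as incomplete, went from 2.34 to 10.1 and 10.3 FPKM, a change of 1.78 and 1.80 (adjusted p = 0.00174 and 0.00172 in limma). ENST00000517476 was at 7.67, 7.71 and 12.0 FPKM and passed neither test.

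The last exons of E2F5 overlap the minus-strand gene RBIS (C8orf59 in GENCODE release 29) by 969 nt, and no source states that strand was kept in these libraries. RBIS, a ribosome assembly factor, was at 135, 174 and 151 FPKM on average in Scramble, Si-FIBP#1 and Si-FIBP#2. It rose by 0.37 and 0.17 on the log2 scale (limma adjusted p = 0.00016 and 0.013), and neither siRNA group overlapped with Scramble. The part of RBIS reads in the E2F5 values was not tested. Without the E2F5 transcripts that share exons with RBIS, the remaining sum was 10.4 ± 1.55, 17.9 ± 2.40 and 22.6 ± 4.12 FPKM (SD, n = 3), a change of 0.73 (limma adjusted p = 0.00261) and 1.05 (adjusted p = 0.000317). With ENST00000518234 left out instead, the rise was 0.49 and 0.64 (limma adjusted p = 0.00052 and 0.000109). Each of these sums keeps what the other leaves out. With both left out, which removes the transcripts seen to rise, 8.04 ± 2.63, 7.81 ± 1.63 and 12.3 ± 2.96 FPKM remained (SD, n = 3), both siRNA groups overlapped with Scramble, and the change was -0.01 (limma adjusted p = 0.974) and 0.58 (adjusted p = 0.0632). ENST00000518234 itself shares no exon with RBIS. The low value of the last sum follows in part from the choice of what to leave out, so it is no test of the rise. All 3 reduced sums were chosen after the data were seen.

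E2F6 (minus strand of chromosome 2, 11444375 to 11466177) silences genes through Polycomb-like partners. Its values were 15.6, 14.4 and 14.5 FPKM in Scramble, 13.9, 14.8 and 16.2 after Si-FIBP#1, and 15.0, 15.0 and 15.2 after Si-FIBP#2. The groups overlapped. The log2 fold change was 0.0071 (95% interval from -0.15 to 0.16, limma adjusted p = 0.943) and 0.018 (from -0.14 to 0.17, adjusted p = 0.85), and its sign turned under other scalings of the libraries.

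The atypical repressors E2F7 and E2F8 are E2F targets that limit E2F activity late in S phase. E2F7 (minus strand of chromosome 12, 77021247 to 77065580) was at 14.1, 13.6 and 13.6 FPKM in Scramble, at 5.23, 6.60 and 5.70 with Si-FIBP#1 and at 11.1, 8.66 and 10.9 with Si-FIBP#2. The 3 groups did not overlap, and Si-FIBP#2 lay between the others. The log2 fold change was -1.11 (SE 0.105, limma adjusted p = 2.91e-05) with Si-FIBP#1 and -0.40 (SE 0.105, adjusted p = 0.0103) with Si-FIBP#2. The difference between the siRNAs, 0.71 (SE 0.105, limma adjusted p = 0.0028), was the largest of the 10 members.

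E2F8 (minus strand of chromosome 11, 19224063 to 19241620) was at 8.72, 9.53 and 8.90 FPKM in Scramble, at 2.61, 2.45 and 2.78 with Si-FIBP#1 and at 3.50, 2.62 and 2.58 with Si-FIBP#2. Scramble was above all depleted samples, and the siRNA groups overlapped. The log2 fold change was -1.48 (SE 0.108, limma adjusted p = 5.89e-06) and -1.37 (SE 0.108, adjusted p = 1.04e-05). The ratio of E2F7 to E2F8 was 1.52 ± 0.0934 in Scramble, 2.25 ± 0.386 after Si-FIBP#1 and 3.56 ± 0.564 with Si-FIBP#2 (SD, n = 3), and the ratios of the 3 groups did not overlap. E2F2 and E2F8 rest on the fewest reads of the members, with an estimated 140 to 702 and 149 to 619 fragments per library over all their transcripts.

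FOXM1 was the most abundant member in Scramble cells, followed by MYBL2 and E2F4, which overlapped, and both FOXM1 and MYBL2 fell with E2F1, E2F2 and E2F8. FOXM1 (minus strand of chromosome 12, 2857681 to 2877155), a forkhead activator of G2 and mitotic genes, was at 80.2, 76.3 and 77.9 FPKM in Scramble, at 22.8, 20.9 and 21.5 with Si-FIBP#1 and at 31.0, 24.0 and 28.9 with Si-FIBP#2. The 3 groups did not overlap. Its log2 fold change was -1.80 (SE 0.0854, limma adjusted p = 6.61e-07) and -1.46 (SE 0.0854, adjusted p = 2.14e-06), and the siRNAs differed by 0.34 (adjusted p = 0.026 in limma).

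Of the FOXM1 transcripts, ENST00000359843 fell from a mean of 27.3 FPKM to 5.29 and 6.28, by a log2 change of -2.18 and -1.97 (limma adjusted p = 4.8e-05 and 7.87e-05). ENST00000342628 went from 5.58 to 2.73 and 4.18 FPKM, a change of -0.87 (limma adjusted p = 0.029) and -0.36 (adjusted p = 0.327). The 3′ end of FOXM1 shares 781 nt of exons with ITFG2 on the other strand, which was at 25.3, 26.2 and 27.2 FPKM on average. Without the Ensembl transcripts that share exons with ITFG2 and without those assembled by the authors, short FOXM1 transcripts remained. None of them is annotated as protein coding, so they do not stand for the coding mRNA. They summed to 4.48, 1.83 and 1.59 FPKM on average, where the whole sum was 78.1 in Scramble. Their change was -0.97 and -1.09 (limma adjusted p = 0.00272 and 0.00143). In FPKM these means were 2.45 and 2.83 times lower than in Scramble, although the change with Si-FIBP#1 was just under 2-fold on the log2(FPKM + 1) scale, and Si-FIBP#2 differed from Si-FIBP#1 by -0.11 (adjusted p = 0.751 in limma), opposite in sign to the whole sum.

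MYBL2 (plus strand of chromosome 20, 43667019 to 43716496) carries the MuvB complex from its repressive to its activating form. It was at 67.6, 63.7 and 64.2 FPKM in Scramble, at 16.0, 17.2 and 16.9 with Si-FIBP#1 and at 21.4, 20.9 and 24.0 with Si-FIBP#2. The groups did not overlap. Its log2 fold change was -1.90 (SE 0.0651, limma adjusted p = 2.45e-07) with Si-FIBP#1 and -1.52 (SE 0.0651, adjusted p = 6.69e-07) with Si-FIBP#2. The former was the lowest of the 10 members on the log2(FPKM + 1) scale, whereas in FPKM itself E2F2 fell further, to 21.4% of Scramble against 25.6% for MYBL2. The siRNAs differed by 0.38 (limma adjusted p = 0.00528). Its relative MYBL1 went from 36.0 to 15.1 and 18.5 FPKM, by -1.20 (limma adjusted p = 3.07e-05) and -0.93 (adjusted p = 0.000151). MYB, near the filter, went from 1.27 to 0.75 and 0.57 FPKM, by -0.39 (limma adjusted p = 0.0507) and -0.53 (adjusted p = 0.013).

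**Figure D3:**
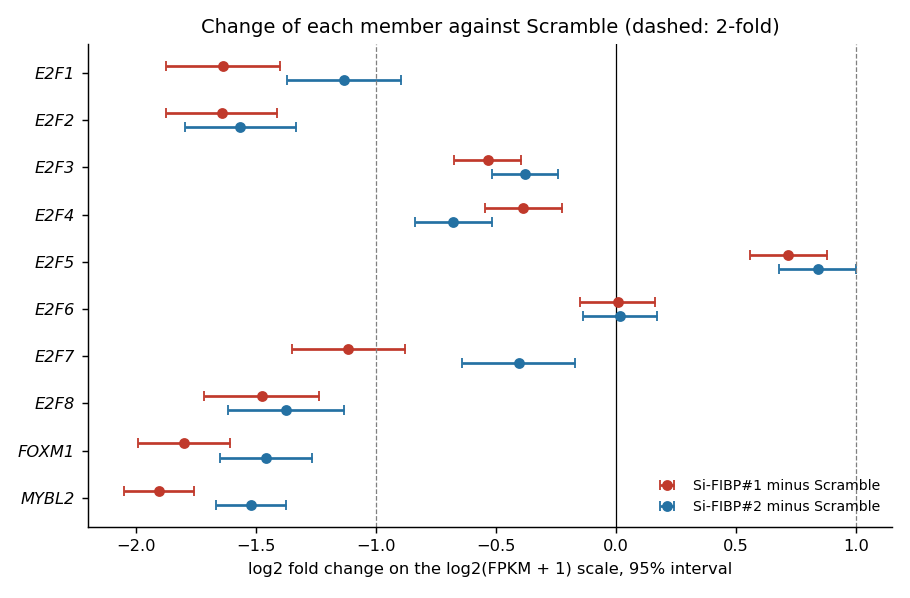
Log2 fold change of each member against Scramble (horizontal axis, log2(FPKM + 1) scale) with its 95% interval from limma, for Si-FIBP#1 and Si-FIBP#2, and dashed lines at 2-fold. The intervals of E2F6 include 0, those of E2F5 lie above 0, and those of the other 8 members lie below 0.

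Between the 2 siRNAs, 5 members passed the adjusted p alone, E2F1, E2F7, FOXM1 and MYBL2 being higher and E2F4 lower with Si-FIBP#2, and none was called at 2-fold. Among all genes 15.4% passed and 0.561% were called in that comparison. The siRNA groups did not overlap for 6 members, those 5 and E2F3, and for 32.9% of all genes tested. For the other 5 members the differences were 0.08 for E2F2 (95% interval from -0.15 to 0.31), 0.15 for E2F3 (from 0.02 to 0.29, limma adjusted p = 0.125), 0.12 for E2F5 (from -0.04 to 0.28), 0.01 for E2F6 (from -0.14 to 0.17) and 0.10 for E2F8 (from -0.14 to 0.34). FIBP itself differed by 0.13 (from -0.28 to 0.54) between the siRNAs. The differences for E2F7 and MYBL2 kept their adjusted p below 0.05 in every alternative run, and those of E2F1, E2F4 and FOXM1 did not.

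The order of the levels in FPKM, which are per transcript length, changed with depletion. In Scramble it was FOXM1, MYBL2, E2F4, E2F5, E2F1, E2F3, E2F6, E2F7, E2F8 and E2F2, and only MYBL2 and E2F4 overlapped as neighbours. With Si-FIBP#1 E2F4 and E2F5 led and overlapped, FOXM1 followed, and MYBL2 and E2F6 overlapped behind it. E2F5 led alone with Si-FIBP#2, ahead of E2F4, FOXM1 and MYBL2, but its sum without ENST00000518234 and the transcripts that share exons with RBIS (the reduced sum, which removes what was seen to rise), 7.81 and 12.3 FPKM with the siRNAs, was below all of these. E2F1 and E2F7 overlapped with either siRNA, and E2F8 and E2F2 stayed last.

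Summed over classes, E2F1 to E2F3 went from 49.4 ± 0.613 FPKM in Scramble to 21.4 ± 0.878 after Si-FIBP#1 and 26.5 ± 1.69 with Si-FIBP#2 (SD, n = 3). The sum of E2F4 to E2F6 was 105 ± 5.34, 108 ± 1.21 and 103 ± 6.81 FPKM, and these groups overlapped. With the reduced E2F5 sum in its place it was 86.1 ± 6.91, 70.8 ± 3.13 and 66.5 ± 5.13 FPKM. All Scramble values were then above all depleted values. The reduced sum leaves out the E2F5 transcripts seen to rise, so this fall follows in part from that choice and is no test. E2F4 made up 70.2% ± 1.17 of E2F4 plus E2F5 in Scramble, 51.8% ± 2.46 after Si-FIBP#1 and 44.5% ± 0.809 with Si-FIBP#2. Against the reduced E2F5 sum its share was 88.8%, 86.1% and 76.2%, and Scramble and Si-FIBP#1 overlapped. E2F7 plus E2F8 went from 22.8 ± 0.315 to 8.46 ± 0.605 and 13.1 ± 1.69 FPKM.

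The activators were thus 47.2% ± 2.53 of the canonical repressors in Scramble, 19.9% ± 0.752 after Si-FIBP#1 and 25.7% ± 0.784 with Si-FIBP#2, with no overlap between the 3 groups. E2F5 alone went from 15.1% ± 0.356 of the FPKM of all 8 E2F genes to 32.5% ± 1.12 and 34.2% ± 0.518. Its reduced sum was 5.04%, 7.74% and 11.6% of all 8, and the activators were then 57.6%, 30.3% and 40.0% of the canonical repressors, still with no overlap. These are mRNA shares, and neither protein levels nor binding were measured. The split between activators and repressors was therefore not one of direction, since E2F4, E2F7 and E2F8 fell with the activators.

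**Figure D4:**
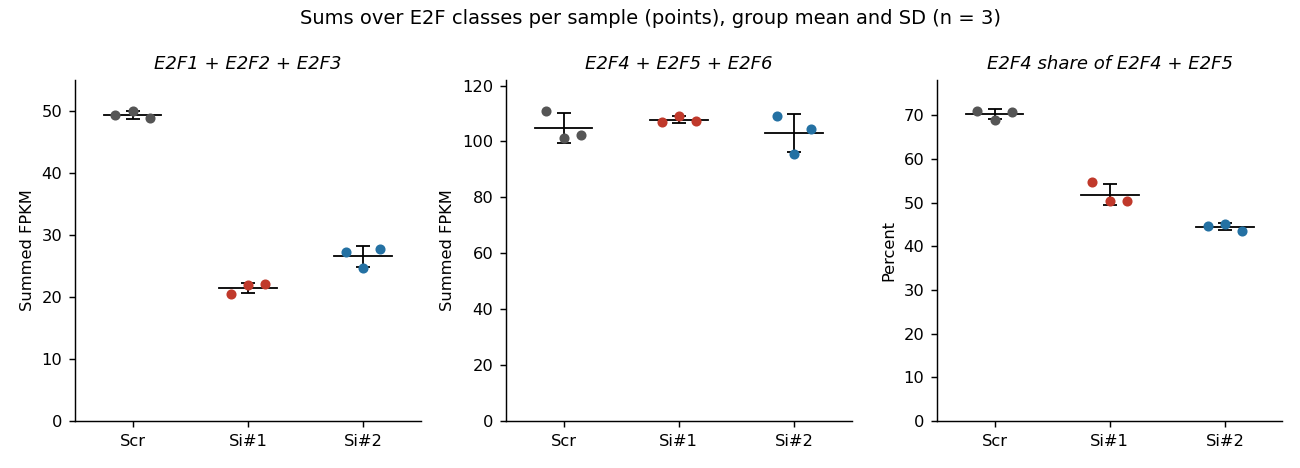
Summed FPKM of E2F1 to E2F3 and of E2F4 to E2F6, and E2F4 as a percent of E2F4 plus E2F5 (vertical axes, from 0), in each sample (points) with group mean and SD (n = 3). With all transcripts summed, the activator sum and the E2F4 share fall in both depleted groups, and the E2F4 to E2F6 sums of the 3 groups overlap.

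The partners of the E2F proteins were a list of 6 genes, of which TFDP3 was below the filter. None of the 5 tested was called at 2-fold, and 3 fell on the adjusted p alone with each siRNA, a share near the 47.7% and 48.8% of all genes. RBL1 (p107), itself an E2F target, went from 8.07 to 4.27 and 4.41 FPKM, by -0.79 and -0.74 (limma adjusted p = 0.000201 and 0.000284). TFDP1, the main DP partner, went from 41.3 to 27.6 and 26.1 FPKM, by -0.57 and -0.64 (adjusted p = 8.33e-05 and 4.03e-05 in limma), but passed neither test without the assembled transcripts (-0.19 and -0.55, limma adjusted p = 0.495 and 0.0533).

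RB1 changed by -0.28 (limma adjusted p = 0.00527) and -0.18 (adjusted p = 0.0458), the latter lost in 10 of its alternatives, among them leaving out any one of Scramble 1 or 3, Si-FIBP#1 2 or 3 and Si-FIBP#2 1 or 3. RBL2 (p130), the pocket protein of resting cells, was at 23.6, 23.4 and 26.2 FPKM, and TFDP2 was at 14.7, 16.4 and 17.5 FPKM. Neither passed the test, although RBL2 did so with Si-FIBP#2 when Scramble replicate 1 was left out (0.21, limma adjusted p = 0.0368).

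All 5 genes of the MuvB core passed on the adjusted p, against 47.7% and 48.8% of all genes. None was called at 2-fold on the log2(FPKM + 1) scale. LIN52 changed by -0.96 and -0.98 (limma adjusted p = 3.43e-05 and 3.27e-05). In FPKM itself it went from 14.3 to 6.91 and 6.78, which is 2.07 and 2.11 times lower. LIN54 changed by -0.69 and -0.38 (limma adjusted p = 0.000146 and 0.00447), and LIN9 by -0.63 and -0.54 (adjusted p = 0.00101 and 0.00246). The histone chaperone RBBP4 changed by -0.41 and -0.50 (limma adjusted p = 0.00133 and 0.000439). LIN37 rose instead, from 19.8 to 30.1 and 30.2 FPKM, by 0.58 with each siRNA (limma adjusted p = 0.000219 and 0.000217).

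Of 10 genes of E2F6 repressor complexes, 0 were called at 2-fold. With Si-FIBP#1, 2 rose and 3 fell on the adjusted p, and with Si-FIBP#2, 3 rose and 3 fell, near the 47.7% and 48.8% of all genes that passed. RING1, a Polycomb ubiquitin ligase, rose by 0.78 and 0.73 (limma adjusted p = 0.000115 and 0.000166) and L3MBTL2 by 0.41 and 0.54 (adjusted p = 0.00108 and 0.000233). CBX3 changed by -0.48 and -0.47 (limma adjusted p = 0.000101 and 0.000121) and PCGF6, the subunit that marks this complex, by -0.26 and -0.39 (adjusted p = 0.0168 and 0.00192). MGA changed by 0.17 (limma adjusted p = 0.184) and 0.29 (adjusted p = 0.0338), and MAX by -0.22 (adjusted p = 0.298 in limma) and -0.39 (adjusted p = 0.0677).

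Genes known as E2F targets in G1 and S phase fell with the activators. Of 33 listed, 25 were called lower and 1 higher with Si-FIBP#1, with a median log2 fold change of -1.33, and 21 lower and 0 higher with Si-FIBP#2, with a median of -1.16. Of all genes 3.11% and 2.13% were called lower. The list was chosen with earlier results of these data known, so these counts describe the list and are no test. On the adjusted p alone 32 fell and 1 rose in each comparison, against 47.7% and 48.8% of all genes passing in either direction. RRM2, a ribonucleotide reductase subunit, went from 132 to 29.7 and 36.9 FPKM, by -2.12 and -1.83 (limma adjusted p = 1.26e-06 and 3.62e-06). TYMS, which makes thymidylate, changed by -2.20 and -1.53 (adjusted p = 3.06e-07 and 1.3e-06 in limma) and UHRF1, which maintains DNA methylation, by -1.88 and -1.84 (adjusted p = 1.02e-06 and 1.45e-06).

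At the other end of that list, POLA1 changed by -0.60 and -0.62 (limma adjusted p = 0.000825 and 0.000671) and the phosphatase CDC25A by -0.75 and -0.27 (adjusted p = 3.98e-05 and 0.014). The one gene that rose was CCNE1 (cyclin E1, which activates CDK2 at S phase entry), from 11.2 to 25.2 and 20.0 FPKM, by 1.11 and 0.77 (limma adjusted p = 9.94e-05 and 0.000896). Between the siRNAs only GINS1, a replicative helicase subunit named after its values were seen, was called: it was at 10.6, 1.56 and 6.11 FPKM and differed by 1.47 (limma adjusted p = 0.000253).

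Genes known as targets of FOXM1 and of MYBL2 with MuvB fell as a list too. That list was also chosen with earlier results of these data known. Of 30 listed, 28 were called lower with Si-FIBP#1 (median -1.51) and 19 with Si-FIBP#2 (median -1.12), against 3.11% and 2.13% of all genes, and all 30 fell on the adjusted p in both comparisons, which 47.7% and 48.8% of all genes passed. KIF20A, a mitotic kinesin, changed by -1.92 and -1.70 (limma adjusted p = 3.79e-07 and 6.69e-07), CDC20, the APC/C activator, by -1.88 and -1.52 (adjusted p = 3.06e-07 and 6.69e-07) and the checkpoint kinase TTK by -1.89 and -1.31 (adjusted p = 1.64e-05 and 0.000161). By the mean over both siRNAs, the smallest changes were those of CENPE (-0.94 and -0.46, limma adjusted p = 0.000522 and 0.0233), CDC25B (-0.93 and -0.79, adjusted p = 3.45e-05 and 9.75e-05) and CCNB2 (-1.18 and -0.86, adjusted p = 2.54e-06 and 1.78e-05).

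Against each other, the siRNAs differed on the adjusted p in 23 of the 30 G2 and M genes, all 23 higher with Si-FIBP#2, and in 12 of the 33 G1 and S genes, 10 of them higher, against 15.4% of all genes. None of the 30 G2 and M genes differed by 2-fold.

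By likeness of pattern, the 3 other genes with the highest Pearson correlation to a member over the 9 samples, among 10020 genes with a mean of at least 5 FPKM, were DTYMK, TPX2 and KIF2C for E2F1 (r from 0.995 to 0.996). For MYBL2 they were DNAJB1, NCAPG and WNT5B (all at 0.998). For E2F4, whose level was lowest with Si-FIBP#2, they were INPP5K, RFLNA and CRIP2 (r from 0.986 to 0.987). These samples fall into 3 groups, so such values mainly describe the order of the groups.

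The line's markers were checked in the same tables. VIM, KRT8 and KRT18 were expressed in all 9 samples and KRT19 was at most 0.29 FPKM. KRT18, a keratin, was called lower with both siRNAs, from 476 to 209 and 175 FPKM, by -1.19 and -1.45 (limma adjusted p = 2.01e-05 and 6.88e-06), and VIM and KRT8 fell by less than 2-fold. The sum of the 4 markers, most of it VIM, ranged from 3726 to 3954 FPKM in Scramble, and Si-FIBP#1 gave sums of 2433 to 2757 and Si-FIBP#2 of 1803 to 2502. None of 10 markers of blood, endothelial, fibroblast, liver and alveolar cells passed the filter, and their sum ranged from 0.73 to 1.18, from 1.64 to 2.72 and from 1.78 to 5.02 FPKM in the 3 groups, with the T cell marker CD3E at 0 throughout. Their part in the members' changes was not tested. Scaled by median ratios, the median change of all genes moved from 0.11 to 0.01 in the Si-FIBP#2 comparison and from 0.07 to 0.01 in the other, and the split of all calls from 438 higher and 319 lower to 332 and 437 with Si-FIBP#2, while the direction of the 9 members other than E2F6 did not turn against Scramble.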

How the data were processed

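RNA of the 9 samples was made into TruSeq poly(A) libraries. The submitters' processing notes name HISAT2 and StringTie; versions, genome build and annotation release are not given in the sources used here. The deposited tables hold FPKM for each transcript, computed by the authors, and include transcripts assembled by them. No counts were used; the depth was estimated from the steps between low FPKM values at 20150000 to 23800000 fragments per library.

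FPKM were summed per gene. Genes that reached 1 FPKM in 3 or more samples entered limma 3.58.1 (R 4.3.3, trended variance, all 9 samples, group as the only term) on log2(FPKM + 1), with Benjamini-Hochberg adjustment over 14985 genes; a call needed an adjusted p below 0.05 and a fold over 2, the thresholds of the study's methods. Fold changes on this scale understate those of low genes. The procedure was tested on simulated data, in which 200 genes were moved up or down by 1.5 on the log2 scale in Si-FIBP#1 alone. Of these 194 were called, with 1 false call. The simulated noise was normal and independent, and far fewer genes changed than passed in the real data. The simulation therefore says little about error rates here. Gene positions and shared exons are from GENCODE release 29 (GRCh38). Some transcripts as quantified by the authors differ in length from that release. ENST00000359843 of FOXM1 had 3552 nt against 3315 nt in the release, and ENST00000416274 of E2F5 had 1964 nt against 1728 nt. The exons shared with RBIS and ITFG2 may thus differ from those of the quantified transcripts. Same-numbered samples deviated together at most weakly, with correlations from -0.057 to 0.103. Samples of unlike number gave -0.142 to 0.049. No pairing was used in the main fit.

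The members and lists were chosen with earlier results of these data known. Named were all members, FIBP, every tested partner and MuvB gene, the 3 lowest and 3 highest genes of each other list by mean change, and the 3 genes most like E2F1, E2F4, FOXM1 and MYBL2, of which those for FOXM1 are not reported here. Alternatives were the pseudocount, the filter, TPM or median-ratio scaling, fewer samples in the fit, Ensembl transcripts alone, a replicate block and each sample left out. The transcript fit and the reduced sums of E2F5 and FOXM1 (Ensembl transcripts only) were added after the data were seen.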

Additional observations from a re-analysis of the deposited data

Results flagged for a closer look

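For 5 members the effects of the 2 siRNAs differed in the direct limma contrast of Si-FIBP#2 against Si-FIBP#1, on the log2(FPKM + 1) scale and with Benjamini-Hochberg adjustment over all genes tested, of which 15.4% passed. E2F7 differed by 0.71 (adjusted p = 0.0028), E2F1 by 0.50 (adjusted p = 0.0129), MYBL2 by 0.38 (adjusted p = 0.00528) and FOXM1 by 0.34 (adjusted p = 0.026), each less lowered with Si-FIBP#2. E2F4 differed by -0.29 (adjusted p = 0.0242) and was the one lower with Si-FIBP#2. In each of the 5 all 3 samples of one siRNA lay on one side of the other 3, as they did for 32.9% of all genes tested. The adjusted p rose above 0.05 in 2 alternatives for E2F1, in 4 for E2F4 and in 9 for FOXM1. The FOXM1 difference turned to -0.11 in the run that left out both the transcripts sharing exons with ITFG2 and the assembled ones. That turn cannot be put down to either choice alone. None of the differences reached 2-fold.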

How the results depend on the processing

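With a single exception, the members' counts were 6, 5 and 0 calls (Si-FIBP#1, Si-FIBP#2, and between the siRNAs) under every alternative with the 2-fold rule. The sums of FOXM1 and E2F5 without transcripts sharing exons with the other strand gave 5, 6 and 0. FOXM1 lost its call with Si-FIBP#1 (-0.97) and E2F5 gained one with Si-FIBP#2 (1.05). That FOXM1 sum also left out the assembled transcripts and kept none annotated as protein coding. Its lost call cannot be put down to the shared exons alone. On the adjusted p alone the members' counts were 9, 9 and 5, those of the G1 and S list 33, 33 and 12, those of the G2 and M list 30, 30 and 23, and those of all genes 7146, 7309 and 2304. A pseudocount of 0.1 gave 1498, 1411 and 172 calls over all genes. Leaving out 1 sample gave 73 to 128 calls between the siRNAs, with 128 without Si-FIBP#2 replicate 2, against 84. A replicate block was also tried, although same-numbered samples were at most weakly correlated. With it the members' counts were 6, 5 and 0 and those of all genes 853, 760 and 88.

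Of the alternative fold changes of members, 572 kept their direction and their side of an adjusted p of 0.05. Another 15 lost that threshold and 13 turned in sign, without regard to the 2-fold limit. Many of the 572 could not change direction. The filters, the replicate block, the fit of only the groups compared and the absence of a sample outside the comparison return the same fold change. The reduced sums alter only E2F5 or FOXM1. E2F6 turned to -0.0365 with TPM, -0.0634 with median ratios and -0.0013 with Ensembl transcripts alone for Si-FIBP#1, to -0.0915 with median ratios for Si-FIBP#2 and to -0.0281 with median ratios between the siRNAs. With 1 sample left out, E2F6 ranged from -0.0473 to 0.0546, from -0.0026 to 0.0516 and from -0.0366 to 0.0653 in these comparisons, E2F8 between the siRNAs from -0.0044 to 0.161, and RBL2 with Si-FIBP#1 from -0.0554 to 0.0536. FOXM1 between the siRNAs turned to -0.114 in its reduced sum. Without ENST00000518234 and the transcripts sharing exons with RBIS, E2F5 turned to -0.0111 with Si-FIBP#1 and lost the threshold with Si-FIBP#2 (0.579, limma adjusted p 0.0632). The other 14 losses all concern differences between the siRNAs: E2F1 without Si-FIBP#1 replicate 1 or Si-FIBP#2 replicate 3 (largest limma adjusted p 0.0526), E2F4 without the filter or without Si-FIBP#1 replicate 1 or 2 or Si-FIBP#2 replicate 3 (largest 0.0837), and FOXM1 in 8 alternatives (largest among them 0.115), including the absence of Si-FIBP#1 replicate 2 or 3 or Si-FIBP#2 replicate 1 or 3. The cause was not tested. FPKM fix no scale between libraries, strand was not available for overlapping genes, and the depth limits E2F8 and E2F2 most.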
